A study of Mus musculus with 5 samples.

Results

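The 9 genes described here encode enzymes that make serine and pass its carbon through folate, and they were taken by name from the 34240 features of a table that compares leukaemic with normal mouse myeloid cells. The group holds the serine synthesis enzymes Phgdh, Psat1 and Psph, the cytosolic folate enzymes Shmt1, Mthfd1 and Tyms, and the mitochondrial folate enzymes Shmt2, Mthfd2 and Mthfd1l. All 5 RNA sequencing libraries came from BALB/c mice aged 10 to 12 months. Normal cells were Gr1+Mac1+ myeloid cells of the bone marrow (3 libraries), and acute myeloid leukaemia (AML) cells carrying Mac, Gr1 and B220 had been sorted from bone marrow and spleen (2 libraries). The leukaemia arises from CNTRL-FGFR1, in which the centrosomal protein centriolin is joined to the tyrosine kinase FGFR1. Spleen as a tissue and B220 as a sorting marker occurred in the AML group alone, so neither can be told apart from the leukaemia. How the fusion was delivered, and whether each library stands for a different mouse, is not stated in the labels; p-values therefore reflect the spread between these libraries, which may be technical.

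Serine is made from the glycolytic intermediate 3-phosphoglycerate by Phgdh, Psat1 and Psph acting in that order. Serine hydroxymethyltransferases, Shmt1 in the cytosol and Shmt2 in mitochondria, then move a carbon unit from serine to tetrahydrofolate and leave glycine. Mthfd enzymes oxidise or reduce these folate-bound units, and the units feed the synthesis of purines and, through thymidylate synthase (Tyms), of the DNA precursor thymidylate. Dividing cells, haematopoietic precursors and leukaemias among them, rely on this supply, and drugs against its folate steps are long established in leukaemia treatment.

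Values were taken to be RPKM, reads scaled to transcript length and to the mapped reads of the library, so levels of different genes can be compared. Depths, estimated from low values of genes with a single exon, ran from 33250000 to 76500000 reads per library. At these depths whole read numbers were met by 52.1% to 73.0% of the values used, against 21.9% to 33.8% by chance at a single trial depth. Each depth was picked to make this excess largest, so the excess does not check the depths, which remain rough. Itgam and Ly6g, genes of the Mac1 and Gr1 antigens, were transcribed at 169 RPKM or more in every library, while the B cell genes Cd79a and Cd79b stayed at 6.8 RPKM or less. Both antigen genes were lower in AML cells, Itgam 2.33-fold (limma adjusted p = 0.020) and Ly6g 2.31-fold (0.020). Normal library 3 stood apart from normal libraries 1 and 2 (Pearson r of 0.924 and 0.944 across genes, against 0.988 between those), and 11 erythroid marker genes summed to 2263 and 1476 RPKM in normal libraries 1 and 2 but to 174.7 RPKM in normal library 3 and 173.7 and 189.0 RPKM in the AML libraries. In sorted bulk cells, a smaller share of cells of a type and less RNA per cell cannot be told apart.

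Shmt2 and Shmt1, both serine hydroxymethyltransferases, rose most among the 9 enzymes in AML cells, at 7.94-fold and 5.17-fold, and Tyms and Psph rose 2.31-fold and 2.10-fold. The test did not call the remaining 4 tested enzymes, Psat1, Mthfd1, Mthfd2 and Mthfd1l, and Phgdh lay under the test's filter of 1 RPKM in 2 libraries. Thus 4 of the 8 tested enzymes were called higher and 0 were called lower, where 19.3% of all 10166 tested genes were called higher, 11.8% lower and 31.0% in either direction (limma on log2(RPKM + 1), Benjamini-Hochberg adjusted p under 0.05). Without AML library 1 or AML library 2 the enzymes called higher numbered 2, and without normal library 1 or normal library 2 they numbered 3. Without normal library 3 there were 4 called higher and 1, Psat1, called lower. At an unadjusted p under 0.05, Mthfd1 was also higher (0.0243) and Psat1 lower (0.0228). Each tested enzyme stood above 1 RPKM in every library, so none entered the test through a single group. Groups did not overlap for 6 of the 9 enzymes, against 57.0% of all tested genes. The median log2 fold change of the 8 enzymes was 0.91 and that of all tested genes 0.12.

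**Figure D1:**
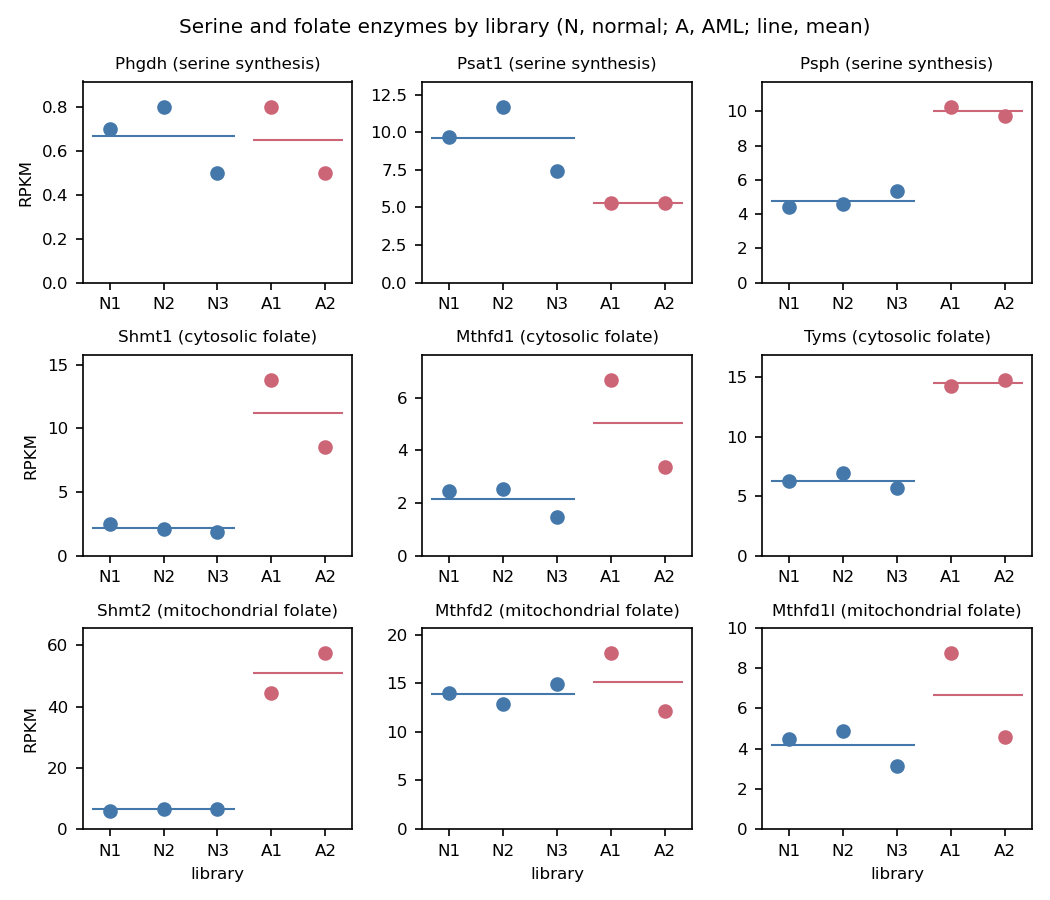
RPKM of each of the 9 enzymes (vertical axes, starting at 0, with a separate scale per gene) in each library (horizontal axes; N1 to N3 normal, A1 and A2 AML), with lines at the group means. Points of the groups are apart for Psat1, Psph, Shmt1, Mthfd1, Tyms and Shmt2, and they overlap for Phgdh, Mthfd2 and Mthfd1l.

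Of the serine synthesis enzymes, Psph alone was called, and the gene of the first step stayed under 1 RPKM in every library. Phgdh, which oxidises 3-phosphoglycerate and commits it to serine (chromosome 3, 98117093 to 98143913, mm9), stood at 0.7, 0.8 and 0.5 RPKM in normal libraries 1 to 3 and at 0.8 and 0.5 RPKM in AML libraries 1 and 2. The AML values equal the highest and the lowest normal value, so the groups overlap fully. With an exon length of 2486 bases and the estimated depths, these levels correspond to roughly 58 to 152 reads per library, and they were deposited with 1 decimal. When all features above 0 were tested, the log2 fold change of Phgdh was -0.016 (limma, 95% interval -0.40 to 0.37, adjusted p = 0.94).

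Psat1, the aminotransferase of the pathway's middle step (chromosome 19, 15979168 to 16021827), stood at 9.7, 11.7 and 7.4 RPKM in normal cells and at 5.3 RPKM in both AML libraries. Every normal library was thus above both AML libraries, and means were 9.60 ± 2.15 (SD, n = 3) and 5.3 RPKM, the AML values being equal at the 1 decimal deposited. Its log2 fold change of -0.73 (SE 0.25, 95% interval -1.32 to -0.14) did not pass the test (limma, adjusted p = 0.065). Psat1 did pass when the libraries were rescaled (adjusted p = 0.044 with upper quartile scaling, 0.034 with quantile normalization and 0.049 with totals taken without S100a8 and S100a9) and without normal library 3 (log2 fold change -0.89, adjusted p = 0.016). It missed the threshold with no filter (limma adjusted p = 0.10) and without normal library 1 (0.17) or normal library 2 (0.23). Without either AML library its log2 fold change was -0.73.

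Psph, the phosphatase that releases serine (chromosome 5, 130271434 to 130293129), rose from 4.43, 4.57 and 5.33 RPKM in normal cells to 10.28 and 9.75 RPKM in AML cells. The libraries within each group lay close together and the groups were far apart. Means were 4.78 ± 0.48 (SD, n = 3) and 10.02 ± 0.37 RPKM (SD, n = 2), a 2.10-fold rise with a log2 fold change of 0.93 (SE 0.21, limma adjusted p = 0.017). That call was lost when any one of normal library 1 (adjusted p = 0.070), normal library 2 (0.085), AML library 1 (0.083) or AML library 2 (0.094) was left out, and with totals taken without S100a8 and S100a9 (0.052).

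Among the cytosolic folate enzymes, Shmt1 and Tyms rose. Shmt1, the cytosolic serine hydroxymethyltransferase (chromosome 11, 60601606 to 60625220), stood at 2.50, 2.13 and 1.85 RPKM in normal cells and at 13.80 and 8.54 RPKM in AML cells. Both AML libraries were well above all normal libraries, with AML library 1 the higher. The rise was 5.17-fold, from 2.16 ± 0.33 (SD, n = 3) to 11.17 ± 3.72 RPKM (SD, n = 2), with a log2 fold change of 1.92 (SE 0.26, limma adjusted p = 0.0029). Leaving out each library in turn kept the call (adjusted p up to 0.029). The gene shares 184 of its 3883 exonic bases with Smcr8 on the opposite strand, which stood at 5.43 to 10.69 RPKM in normal and at 14.63 and 7.03 RPKM in AML cells. How reads over those bases were assigned is not stated in the labels.

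Tyms, which makes thymidylate for DNA and in doing so oxidises folate (chromosome 5, 30384742 to 30400157), went from 6.28, 6.92 and 5.66 RPKM to 14.25 and 14.75 RPKM. The AML libraries were close to each other and above every normal library. Its 2.31-fold rise, from 6.29 ± 0.63 (SD, n = 3) to 14.50 ± 0.35 RPKM (SD, n = 2), gave a log2 fold change of 1.09 (SE 0.21, limma adjusted p = 0.010). Without AML library 1 (adjusted p = 0.057) or AML library 2 (0.081) the call was lost.

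Mthfd1, the trifunctional cytosolic enzyme that interconverts folate-bound units (chromosome 12, 77356219 to 77420807), stood at 2.48, 2.54 and 1.46 RPKM in normal cells and at 6.68 and 3.37 RPKM in AML cells. Both AML values exceeded all normal values, but the AML libraries differed from each other by more than the normal libraries did. Its log2 fold change of 0.89 (SE 0.31, 95% interval 0.16 to 1.63) did not pass (limma, adjusted p = 0.068).

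Shmt2, the mitochondrial serine hydroxymethyltransferase, showed the largest change of the 8 tested enzymes. This gene (chromosome 10, 126954195 to 126959491) stood at 5.87, 6.65 and 6.69 RPKM in normal cells and at 44.28 and 57.43 RPKM in AML cells. The lower AML library was far above the highest normal library. The rise was 7.94-fold, from 6.40 ± 0.46 (SD, n = 3) to 50.86 ± 9.30 RPKM (SD, n = 2), with a log2 fold change of 2.80 (SE 0.23, limma adjusted p = 0.00045). The call held without any single library, with log2 fold changes of 2.61 to 2.98 and adjusted p up to 0.011. Shmt2 shares 14 of 2280 exonic bases with Ndufa4l2 on the opposite strand, which was listed at 0 in every library.

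Downstream of Shmt2 in mitochondria, Mthfd2 and Mthfd1l did not pass the test. Mthfd2, the dehydrogenase and cyclohydrolase that oxidises the unit Shmt2 forms (chromosome 6, 83255685 to 83267600), stood at 13.98, 12.90 and 14.95 RPKM in normal cells and at 18.10 and 12.14 RPKM in AML cells. One AML library lay above and the other below the whole normal range. The log2 fold change was 0.09 with a 95% interval of -0.49 to 0.67 (limma, adjusted p = 0.81), an interval that excludes a rise of the size seen for Shmt2, and its sign turned under each rescaling of the libraries and without AML library 1. Mthfd1l, the mitochondrial formate-releasing synthetase (chromosome 10, 6179460 to 6373423), stood at 4.48, 4.87 and 3.14 RPKM against 8.75 and 4.58 RPKM. AML library 2 lay inside the normal range, and the log2 fold change of 0.53 (95% interval -0.20 to 1.27) did not pass (limma, adjusted p = 0.23).

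**Figure D2:**
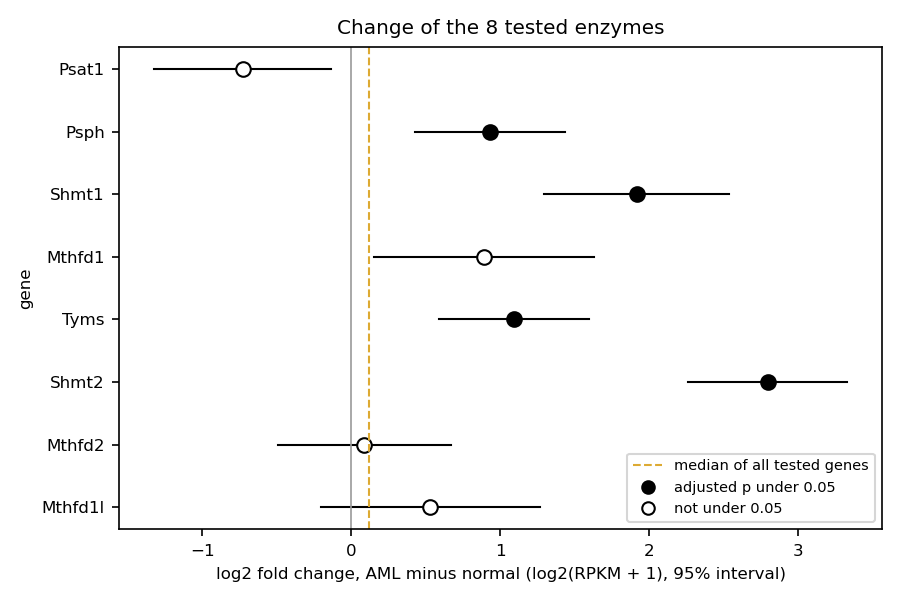
Log2 fold change, AML minus normal, on the log2(RPKM + 1) scale with its 95% interval for the 8 tested enzymes; filled points passed at an adjusted p under 0.05, open points did not, and the dashed line marks the median of all tested genes (0.12). Shmt2 (2.80) and Shmt1 (1.92) lie farthest to the right, and Psat1 (-0.73) is the lone enzyme left of 0.

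The AML libraries differed between themselves in a way that the enzymes did not share. Shmt1, Mthfd1, Mthfd1l and Mthfd2 were higher in AML library 1 than in AML library 2, Shmt2 was higher in AML library 2, and Psph, Tyms and Psat1 were close in both. In the normal group, Phgdh, Psat1, Shmt1, Mthfd1, Tyms and Mthfd1l were lowest in library 3, and Psph, Shmt2 and Mthfd2 were highest there. The labels name no batch, and both AML libraries have the same tissue entry.

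The order of the enzymes by level changed between the groups. In normal cells it ran from Mthfd2 at 12.9 to 14.95 RPKM through Psat1, Shmt2, Tyms, Psph, Mthfd1l, Shmt1 and Mthfd1 to Phgdh. Neighbours whose ranges overlapped were Shmt2 and Tyms, Psph and Mthfd1l, and Shmt1 and Mthfd1. In AML cells Shmt2 led, followed by Mthfd2, Tyms, Shmt1, Psph, Mthfd1l, Psat1, Mthfd1 and Phgdh. There the ranges of Mthfd2 and Tyms overlapped, as did those of Shmt1 and Psph, Mthfd1l and Psat1, and Psat1 and Mthfd1. Psat1 stood at rank 2 of 9 in every normal library and at ranks 8 and 6 in AML libraries 1 and 2, whereas Shmt2 moved from rank 4, 4 and 3 to rank 1 in both.

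Summed over the 9 enzymes, levels were 50.4, 53.1 and 47.0 RPKM in normal libraries and 122.2 and 116.4 RPKM in AML libraries. Shmt2 made up 11.6%, 12.5% and 14.2% of that sum in normal libraries and 36.2% and 49.4% in AML libraries. Psat1 made up 15.8% to 22.0% in normal and 4.34% and 4.55% in AML libraries, and Mthfd2 24.3% to 31.8% and then 14.8% and 10.4%. The share of Tyms was nearly level, at 12.0% to 13.0% in normal and 11.7% and 12.7% in AML libraries. Shares are descriptions of these libraries, and no test was made on them.

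**Figure D3:**
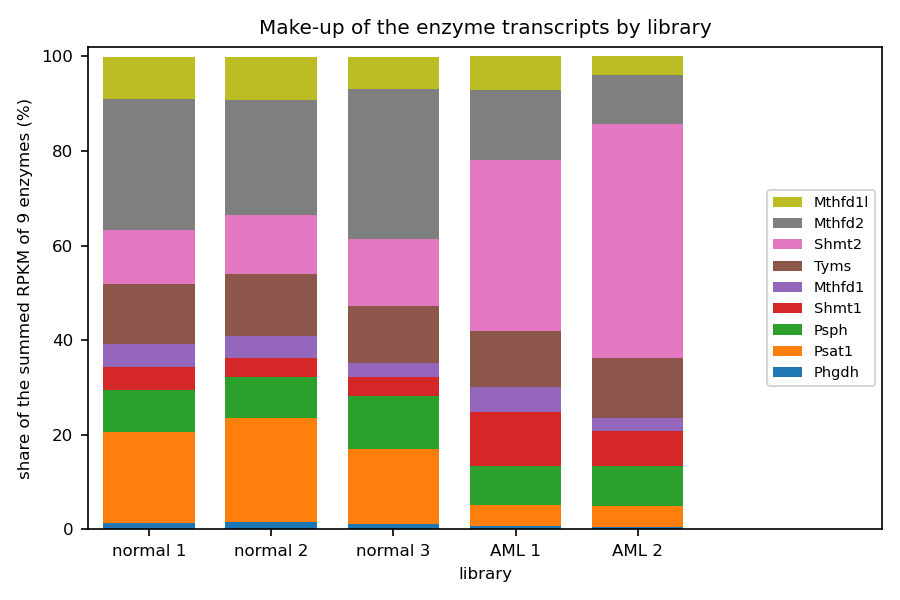
Stacked bars give the share (%) of each enzyme in the summed RPKM of the 9 enzymes in each library. The Shmt2 segment grows from 11.6% to 14.2% in normal libraries to 36.2% and 49.4% in AML libraries, and the Psat1 and Mthfd2 segments are smaller there.

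Within each library, the RPKM ratio of mitochondrial to cytosolic partners does not depend on a factor applied to the whole library. Shmt2 exceeded Shmt1 2.35-fold, 3.12-fold and 3.62-fold in normal libraries and 3.21-fold and 6.73-fold in AML libraries. AML library 1 thus lay inside the normal range of this ratio. On the log2(RPKM + 1) scale the mean difference, Shmt2 minus Shmt1, was 0.88 larger in AML cells (two-sided exact permutation test, p = 0.2, the smallest p that 3 against 2 libraries allow). On that scale AML library 1 (1.61) lay above all normal libraries (0.97 to 1.43), unlike in the plain ratio, so this separation of the groups depends on the pseudocount. With a pseudocount of 0.1 the difference between groups was 0.67. Mthfd2 exceeded Mthfd1 5.64-fold, 5.08-fold and 10.24-fold in normal and 2.71-fold and 3.60-fold in AML libraries, so both AML ratios were below every normal ratio. The corresponding log2 difference was lower by 0.81, from 2.26 ± 0.39 (SD, n = 3) to 1.45 ± 0.19 (SD, n = 2), again with an exact permutation p = 0.2.

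Sequences upstream of the start sites are shown for the 4 enzymes that were called higher. RefSeq promoter windows (build GRCm38.p6) were matched by symbol for all 9 enzymes, with 10 windows in all since Psat1 has a pair of start sites. Each stretch below covers the 250 bases before the start site, 5′ to 3′ on the gene's strand, with capitals for matches on either strand to the E-box CACGTG, the GC box GGGCGG or the CCAAT box CCAAT. The windows lie at chr10:127522445-127522694 for Shmt2, chr11:60811266-60811515 for Shmt1, chr5:30073626-30073875 for Tyms and chr5:129787254-129787503 for Psph, each on the minus strand.
Shmt2: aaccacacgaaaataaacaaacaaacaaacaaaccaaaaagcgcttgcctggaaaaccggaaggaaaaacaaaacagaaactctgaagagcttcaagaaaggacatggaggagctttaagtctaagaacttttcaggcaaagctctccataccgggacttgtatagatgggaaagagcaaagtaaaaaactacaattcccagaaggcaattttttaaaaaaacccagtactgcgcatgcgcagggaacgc
Shmt1: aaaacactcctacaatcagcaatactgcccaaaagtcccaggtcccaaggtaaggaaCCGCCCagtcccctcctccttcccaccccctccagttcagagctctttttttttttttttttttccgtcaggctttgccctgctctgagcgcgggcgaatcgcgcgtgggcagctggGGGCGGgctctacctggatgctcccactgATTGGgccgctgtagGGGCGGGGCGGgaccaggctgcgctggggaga
Tyms: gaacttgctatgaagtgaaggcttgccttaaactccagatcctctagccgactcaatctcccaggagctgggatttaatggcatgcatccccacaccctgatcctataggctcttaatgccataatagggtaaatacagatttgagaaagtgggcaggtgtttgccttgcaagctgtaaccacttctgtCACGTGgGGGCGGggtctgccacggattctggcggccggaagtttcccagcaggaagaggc
Psph: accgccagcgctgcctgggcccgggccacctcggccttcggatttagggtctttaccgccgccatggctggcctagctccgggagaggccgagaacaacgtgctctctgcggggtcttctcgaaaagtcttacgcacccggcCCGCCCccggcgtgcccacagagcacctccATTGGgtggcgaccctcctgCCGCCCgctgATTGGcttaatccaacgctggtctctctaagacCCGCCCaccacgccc

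These 4 windows differ in make-up. Shmt2, with the largest rise, had no match to any of the motifs searched and a GC content of 40.8%. Shmt1 held 4 GC boxes, a pair of them overlapping 22 to 32 bases before the start, and 1 CCAAT box, with a GC content of 60.0%. Tyms held an E-box 56 to 61 bases and a GC box 49 to 54 bases before the start, and Psph held 3 GC boxes and 2 CCAAT boxes. Across all 9 enzymes GC boxes were found upstream of 6 and CCAAT boxes upstream of 6, in each case in 6 of the 10 windows. Of all 32851 RefSeq windows of the same length, taken whether or not the gene was expressed here, 32.7% and 33.8% held them. The E-box was found for Tyms alone (6.02% of all windows). The C/EBP-ATF element TGATGNAA, bound by ATF4 (3.45% of all windows), and the E2F sites TTTCCCGC, TTTGGCGC, TTTCGCGC and TTTGCCGC (1.86%) had no match in the 10 windows. A match is a description of letters, and no binding was measured.

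Of 90 other genes of connected pathways, 66 were tested, of which 21 rose and 6 fell. These shares, 31.8% and 9.09%, stand beside 19.3% and 11.8% of all tested genes, and the median log2 fold change was 0.44. Of the tested genes, Slc19a1 and Chac1 were under 1 RPKM in all normal libraries, and Asns and Slc7a11 in both AML libraries. With totals taken without S100a8 and S100a9, 13 of these genes were called higher. Without AML library 1 or AML library 2 there were 8 in each case, and without normal library 1 or normal library 2 there were 13. Genes called lower numbered 3 without normal library 2 or AML library 1 and 2 without AML library 2.

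Other genes of the folate cycle and of folate handling rose in part. Of 11 tested, 4 rose, Sfxn1, Mtfmt and Fpgs among them, and Ggh fell. Mtfmt lost its call under each rescaling (limma adjusted p up to 0.088), with no filter (0.078) and without normal library 1 (0.12) or normal library 2 (0.14). Fpgs lost its call with totals taken without S100a8 and S100a9 (limma adjusted p = 0.073) and without normal library 1 (0.103) or normal library 2 (0.104). Sfxn1, a carrier of serine into mitochondria, rose 2.65-fold (limma adjusted p = 0.010), a call lost without AML library 1 (0.071). Fpgs, which adds the glutamate tail that retains folate in cells, was 2.38-fold higher at a low level. Ggh, the hydrolase that removes this tail, fell from 15.6, 19.5 and 14.7 RPKM to 1.3 and 0.9 RPKM, 15.1-fold lower (log2 fold change -3.06, SE 0.24, limma adjusted p = 0.00039). Every AML value of Ggh was far below the normal range. Without AML library 1, without AML library 2, and without normal library 1 or 2, respectively 0, 1 and 2 genes of this list were called higher, and with totals taken without S100a8 and S100a9 there were 2. The folate receptor genes Folr1 and Folr2 stayed at 0.1 RPKM or less in all libraries, and Slc19a1, the reduced folate carrier, stood at 0.48 ± 0.21 and 1.45 ± 0.62 RPKM (SD) without passing the test (limma adjusted p = 0.055). It did pass with quantile normalization (limma adjusted p = 0.020) and without normal library 3 (0.044). Slc19a1 reached the filter through the AML libraries alone. It was therefore not tested without either of them, nor with totals taken without S100a8 and S100a9.

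The glycine cleavage and methionine branches held no gene called by limma, and at an unadjusted p under 0.05 they held 0 higher and 0 lower and 1 higher and 1 lower. Of 8 glycine cleavage and related genes 3 were tested, and Dld, a dehydrogenase shared with other complexes, had the highest level at 33.5 ± 4.56 and 46.1 ± 2.67 RPKM (SD; limma adjusted p = 0.17). Gldc, the glycine decarboxylase that would break down glycine left by Shmt2, was at 0.02 RPKM or less in every library. All 6 tested genes of the methionine cycle and transsulfuration missed the threshold, with a median of -0.05, although without normal library 3 there were 1 called higher and 2 called lower. Mat2a, which makes S-adenosylmethionine, stood at 28.4 ± 8.33 and 23.6 ± 16.3 RPKM (SD; limma adjusted p = 0.53).

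Genes of nucleotide synthesis, which consumes folate-bound carbon, rose in part. Of 14 tested purine genes 6 rose and 0 fell (limma; at an unadjusted p under 0.05, 9 higher and 0 lower), with a median log2 fold change of 0.80. Impdh1, an enzyme of guanine nucleotide synthesis, rose 3.96-fold (5.76 ± 0.70 to 22.8 ± 1.71 RPKM, SD; limma adjusted p = 0.0018), and Adsl, which acts at a pair of steps of the pathway, rose 3.31-fold (limma adjusted p = 0.0026). Paics rose 2.04-fold (limma adjusted p = 0.046), and this call was lost under each rescaling, with no filter, and without any one library except normal library 3. Purine genes called higher numbered 2 without any one of normal library 1, normal library 2, AML library 1 and AML library 2 and with totals taken without S100a8 and S100a9. Gart and Atic, the enzymes that take formyl units from folate, did not pass, with log2 fold changes of 0.83 (limma adjusted p = 0.079) and -0.27 (0.67); the sign for Atic turned without AML library 2.

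On the thymidylate side, the enzymes on both sides of Tyms rose with it. Of 12 tested pyrimidine and DNA precursor genes, Dut, Dtymk and Tk1 rose and Rrm2b fell, with a median of 0.54. Dut, which supplies the substrate of Tyms, rose 3.68-fold (10.2 ± 1.56 to 37.5 ± 0.79 RPKM, SD; limma adjusted p = 0.0021). Dtymk, the kinase that acts on its product, rose 5.14-fold (19.5 ± 4.01 to 99.9 ± 18.7 RPKM, SD; limma adjusted p = 0.0017). Rrm2b, a p53-inducible subunit of ribonucleotide reductase, was 2.88-fold lower (limma adjusted p = 0.029), a call lost without any one library except normal library 3 and with no filter (up to 0.21). Rrm1 and Rrm2, the main subunits, had log2 fold changes of 0.18 (SE 0.39) and 0.37 (SE 0.31) and did not pass (limma adjusted p = 0.75 and 0.38). The sign for Rrm1 turned with totals taken without S100a8 and S100a9 and without normal library 3 or AML library 1, and that for Rrm2 without AML library 1. The call of Tk1 was lost without AML library 1 (0.065) or AML library 2 (0.070).

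Of 8 tested genes for the uptake and further use of serine, 3 rose and 1 fell, and all of these 4 encode carriers of amino acids. Srr, Sptlc1 and Sptlc2, enzymes that use serine, and Slc3a2, a carrier subunit, were not called. Slc38a1 and Slc1a5, sodium-dependent carriers of neutral amino acids, rose 2.86-fold (limma adjusted p = 0.0091) and 2.70-fold (0.0063), and Slc38a2 rose 1.89-fold (0.031). The call of Slc38a1 was lost without AML library 1 (limma adjusted p = 0.064) and that of Slc1a5 without AML library 2 (0.050). Slc7a11, which imports cystine in exchange for glutamate, fell from 2.6, 2.9 and 0.6 RPKM to 0.1 RPKM in both AML libraries (limma adjusted p = 0.037), a call lost without either AML library, with no filter (0.083) and with totals taken without S100a8 and S100a9 (0.0503). Without normal library 1 or normal library 2 the gene lay under the filter and was not tested. Slc38a2 lost its call with those totals, with no filter and without any one library except normal library 3 (limma adjusted p up to 0.16). Of this list 1 gene was called higher without either AML library, and 2 without normal library 1 or 2.

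Genes of the response to ATF4, a transcription factor known to drive serine synthesis genes when amino acids are short, moved in both directions. Of 9 tested, Chac1, Pck2 and Aldh18a1 rose and Asns, Sesn2 and Nupr1 fell, with a median of 0.42. Asns, asparagine synthetase, fell from 12.9, 15.9 and 16.9 RPKM to 0.6 and 0.3 RPKM, 33.9-fold lower (log2 fold change -3.48, SE 0.23, limma adjusted p = 0.00031). Both AML libraries had Asns under 1 RPKM, far outside the normal range. Sesn2, a stress-induced regulator of amino acid sensing, was 6.63-fold lower (limma adjusted p = 0.0039), and Nupr1, a stress-induced chromatin protein, 4.65-fold lower (0.037). Chac1, which degrades glutathione, rose 3.75-fold from 0.71 ± 0.03 to 2.68 ± 0.67 RPKM (SD; limma adjusted p = 0.0076), and Pck2, the mitochondrial phosphoenolpyruvate carboxykinase, rose 3.26-fold (0.0061). Chac1 reached the filter through the AML libraries alone and was not tested without either of them. Asns, Chac1 and Pck2 were the only genes of this list whose upstream windows were searched for the ATF4 element given above. Each of them held it, and of these Asns fell and the others rose. Calls of Nupr1 were lost without normal library 2, AML library 1 or AML library 2 and with no filter (limma adjusted p up to 0.19), that of Sesn2 without AML library 2 (0.054) and that of Pck2 without AML library 2 (0.059). Aldh18a1 lost its call under most alternatives, among them each rescaling and any one library left out except normal library 3 (up to 0.22). Without AML library 1 there were 1 higher and 2 lower genes of this list, without AML library 2 there were 0 higher and 1 lower, and without normal library 2 there were 2 higher and 2 lower.

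Among 4 factors known to act on these enzymes, Myc and E2f1 rose and Atf4 and Nfe2l2 did not pass. Myc rose from 2.48 to 3.56 RPKM in normal libraries to 36.80 and 29.28 RPKM in AML libraries, and E2f1, a factor of S phase entry, rose 3.25-fold (limma adjusted p = 0.0046). Atf4 itself stood at 73.17, 133.29 and 198.28 RPKM in normal and 163.10 and 230.18 RPKM in AML libraries, which overlap (limma adjusted p = 0.30). Atf4 passed without normal library 3 (log2 fold change 0.96, limma adjusted p = 0.044).

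**Figure D4:**
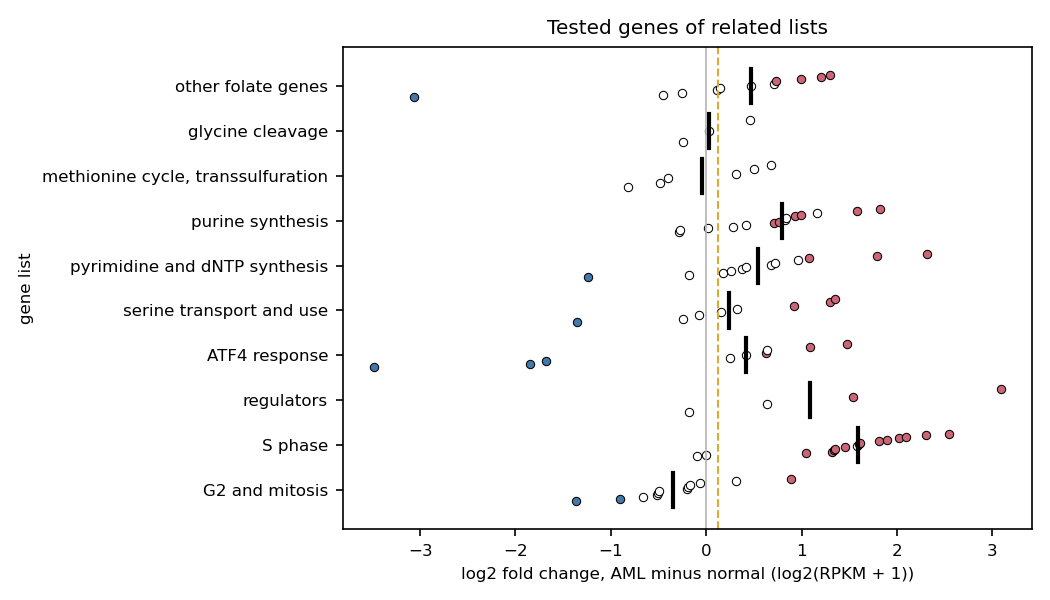
Each point is a tested gene of the list named on the vertical axis, placed by its log2 fold change, AML minus normal, on the log2(RPKM + 1) scale; red points were called higher, blue points lower and open points neither, black bars are list medians and the dashed line is the median of all tested genes (0.12). S phase genes have the highest median (1.59), and the ATF4 response list has called genes at both ends.

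S phase genes, among which Tyms is usually counted, were called higher by limma at 13 of 16 and lower at 0 (at an unadjusted p under 0.05, 14 higher and 0 lower), with a median of 1.59, whereas of 12 genes of G2 and mitosis 1 rose and 2 fell, with a median of -0.35. Prim1, the DNA primase, rose 6.47-fold, Cdt1, a licensing factor, 5.42-fold, and Pole, a replicative polymerase, 4.99-fold (limma adjusted p = 0.0021, 0.00085 and 0.0018). Cdk1, the mitotic kinase, rose 1.89-fold (limma adjusted p = 0.021), and the cyclins Ccna2 and Ccnb1 fell 2.50-fold (0.0496) and 2.06-fold (0.037). Cdk1 lost its call with totals taken without S100a8 and S100a9 (limma adjusted p = 0.064), and Ccna2 (0.105) and Ccnb1 (0.065) lost theirs with no filter. Ccna2 also lost its call with no variance trend (0.0501) and with rounding to 1 decimal (0.052). Calls of those 3 mitotic genes did not hold when AML library 2 or either of normal libraries 1 and 2 was left out, and those of Cdk1 and Ccnb1 also failed without AML library 1. Genes of S phase called higher numbered 7 without AML library 1 and 9 without AML library 2. The sum of the S phase genes was 202 to 300 RPKM in normal and 894 and 742 RPKM in AML libraries.

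Marker genes of other cell types moved with the groups beside these enzymes, and their part in the results was not tested. Progenitor and promyelocyte markers were called higher at 7 of 8 and summed to 290 to 412 RPKM in normal and 9940 and 10850 RPKM in AML libraries. Cd34, the exception, was called lower (log2 fold change -0.88, limma adjusted p = 0.047). It stood at 1.0, 1.4 and 0.3 RPKM in normal libraries and at 0 in both AML libraries, so it reached the filter through normal libraries alone. Monocyte and macrophage markers were lower at 7 of 10, with sums of 477 to 763 RPKM in normal and 38.6 and 46.8 RPKM in AML libraries. Neutrophil markers were lower at 7 of 12, but their sums overlapped, at 192200 to 299800 RPKM in normal and 173200 and 239600 RPKM in AML libraries. The most abundant of them, S100a8 and S100a9, were not called, nor were Ngp, Camp and Lcn2. Of 12 T and NK cell markers 5 were tested, of which 4 rose and 1 fell, with sums of 57.4 to 64.7 and then 618 and 575 RPKM. One of these, Cd3e, stood at 0.19 to 0.56 RPKM in normal libraries, so it reached the filter through the AML libraries alone. Cd3e, Cd3g and Nkg7 carried the higher sums (233.0, 89.5 and 272.4 RPKM in AML library 1), Cd3d fell, and Cd2, Cd4, Cd5, Cd8a, Lck and Zap70 stayed under 1 RPKM in every library. Of 10 B cell markers 4 were tested and 1 fell (sums 13.8 to 21.3 and 11.0 and 13.8 RPKM), and of 7 plasmacytoid dendritic cell markers 5 were tested and 3 fell (25.5 to 32.7 and 13.5 and 14.8 RPKM), Siglech being at 0 in both AML libraries. Of 10 tested erythroid markers 0 were called by limma (at an unadjusted p under 0.05, 1 higher and 1 lower). Basophil, mast cell and eosinophil markers summed to 749, 779 and 25.2 RPKM in normal and 114 and 235 RPKM in AML libraries, and megakaryocyte and platelet markers to 14.5, 14.7 and 2.95 and then 3.47 and 4.30 RPKM. Without normal library 3, markers called lower numbered 8 of the erythroid, 10 of the monocyte, 4 of the megakaryocyte and 6 of the basophil list, in place of 0, 7, 0 and 1. Counts over all genes moved the same way, with 2142 called lower without normal library 3 in place of 1196. All genes called lower numbered 797 without normal library 1 and 640 without normal library 2. Neutrophil markers called lower numbered 3 without normal library 2 and 4 without normal library 1 or AML library 2, plasmacytoid dendritic cell markers called lower numbered 1 without either AML library, and T and NK cell markers called higher numbered 2 without AML library 2.

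Closest to Shmt2 in its profile over the 5 libraries were Rapgef3, Timeless and Lmo2, by Euclidean distance between centred log2(RPKM + 1) values (0.17, 0.23 and 0.24). Rapgef3, a cAMP-activated exchange factor, went from 0.24 ± 0.06 to 7.51 ± 0.73 RPKM, Timeless, a replication fork protein, from 4.36 ± 0.18 to 34.5 ± 3.21 RPKM, and Lmo2, a haematopoietic transcription cofactor, from 38.7 ± 2.67 to 254 ± 28.2 RPKM (SD). With 0.19 to 0.31 RPKM in normal libraries, Rapgef3 reached the filter through the AML libraries alone. Likeness over 5 libraries of 2 groups is set mainly by the difference between the groups.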

How the data were processed

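Total RNA of the sorted cells had been turned into libraries with a TruSeq kit from Illumina, as the labels' protocols state. The authors deposited 1 table with a column per library. Its values are taken to be RPKM, although neither the labels nor the header say so, because they are not whole and their products with exon length have a similar sum in every library. Per the submitters' processing notes the build was mm9; the tools, annotation and strand setting behind the deposited RPKM are not stated. Columns were matched by title, and replicates were numbered in accession order.

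Genes reaching 1 RPKM in 2 or more libraries (10166) were compared as log2(RPKM + 1), which understates changes of low genes, using limma 3.58.1 under R 4.3.3 (variance trend, robust empirical Bayes, two-sided, Benjamini-Hochberg, threshold 0.05), tested on simulated data. That simulation changed 200 genes by known folds with independent noise, far fewer genes than were called here, so it does not check these calls. Means, SD and folds are of RPKM. Coordinates and exon lengths came from GENCODE M1 (mm9) by symbol, and promoters from a RefSeq table of GRCm38.p6. Depth was the trial value at which reads of single-exon genes came out whole most often above chance. Members and the 22 gene lists were chosen with earlier results of these data known. Per related list, the naming rule took the 3 called genes with the largest change, or the most abundant gene if none was called, and it took the 3 genes most like the enzyme that changed most; other genes were named after their values were seen, and 2 genes are not reported here. Alternatives were 3 rescalings, 2 filters, a pseudocount of 0.1, no variance trend, each library left out and, added after seeing the data, rounding to 1 decimal.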

Additional observations from a re-analysis of the deposited data

How the results depend on the processing

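Each alternative was compared for the 8 tested enzymes. Shmt2, Shmt1 and Tyms were called higher under every alternative that kept all libraries, and Shmt2 and Shmt1 also without any single library. Totals taken without S100a8 and S100a9 shifted the median of all tested genes by -0.23 (log2), gave 1251 higher genes in place of 1959, with 47.7% of calls higher in place of 62.1%, gave 13 higher genes of connected pathways, and put Psph at 0.71 (limma adjusted p = 0.052). Upper quartile scaling, quantile normalization and these totals each called 1 enzyme lower, Psat1 (-0.82, -0.84 and -0.95), and put Mthfd2 at -0.0090, -0.0026 and -0.15. Without AML library 1 Mthfd2 was at -0.18, and Mat2a ranged from -1.14 to 0.34 with 1 library left out, its positive value being without AML library 2. Atic ranged from -0.94 to 0.39, Rrm1 from -0.40 to 0.75 and Rrm2 from -0.071 to 0.82 with 1 library left out, and Rrm1 was at -0.071 with totals taken without S100a8 and S100a9; the cause was not tested.

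With each library left out in turn, all genes called higher numbered 326 to 2757 and lower 348 to 2142. Enzymes called higher numbered 2 to 4 and lower 0 to 1, and genes of connected pathways 8 to 25 higher and 2 to 8 lower. Log2 fold changes ranged from -0.89 to -0.59 for Psat1, 0.89 to 1.002 for Psph, 1.60 to 2.23 for Shmt1, 0.49 to 1.30 for Mthfd1, 1.03 to 1.15 for Tyms, 2.61 to 2.98 for Shmt2, -0.18 to 0.36 for Mthfd2 and 0.13 to 0.93 for Mthfd1l. The difference of Shmt2 minus Shmt1 between groups ranged from 0.38 to 1.38 and that of Mthfd2 minus Mthfd1 from -0.95 to -0.59. The filter at 5 RPKM left Mthfd1 and Mthfd1l untested. No paired analysis was possible because the replicate numbers were given in accession order and pair no libraries. With 2 AML libraries, a fit without either of them takes its spread from the normal libraries alone and assumes that the remaining AML library varies like them.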
